A study of Mus musculus with 32 samples.

Results

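The genes described here were 42 genes of the motile cilium, the beating hair of the ciliated cells that line the airways and the nasal respiratory epithelium. They were taken from a list of names, and all 42 were found among the 49671 genes of the count tables. For 40 of them the name matched as listed, and the other 2, Dnai1 and Dnai2, were listed under the older names Dnaic1 and Dnaic2. The tissue was the epithelium of the vomeronasal organ (VNO), a tubular sense organ at the base of the nose. RNA of individual mice aged P42, 42 days after birth, was sequenced from 4 inbred strains: 129S6/SVEV (129), C57/BL6 (B6), SJL/J (SJL) and SWR/J (SWR). Each strain gave 8 mice, 4 males and 4 females, for 32 libraries in all, and no treatment or engineered allele is given in the labels. The p-values therefore measured the spread between mice.

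A motile cilium is built on the axoneme, a ring of microtubule doublets around a central pair. Outer and inner dynein arms drive the sliding of the doublets, radial spokes and the nexin-dynein regulatory complex govern it, and tektins and other inner proteins stiffen the doublets. Foxj1 and the RFX factors are the transcription factors that switch on this gene set, and Mcidas and Ccno act before them, in cells that amplify their centrioles to make many cilia. The sensory neurons of the VNO carry microvilli, so that motile cilia belong to the non-sensory epithelium that faces the organ's lumen and to the respiratory epithelium nearby. Because the samples were bulk tissue, fewer ciliated cells and less RNA per ciliated cell cannot be told apart.

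The reads counted per library ranged from 5106398 to 18640871, with a median of 11461344.5. The 6 listed markers of vomeronasal neurons, Omp and Gnao1 among them, were detected in every strain, with summed levels from 30361.8 to 45507.4 normalized counts over the 30 libraries that remained after 2 that stand apart were set aside. Levels below are the normalized counts that the authors deposited, which are reads divided by a scaling factor of the library. Log2 fold changes (LFC) and false discovery rates (FDR) came from edgeR's quasi-likelihood test with Benjamini-Hochberg adjustment over 18382 genes. All 42 motile cilium genes passed its filter on low counts, some of them through the libraries in which they were high.

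The 42 genes differed widely in abundance. Per length, as TPM (transcript shares scaled to gene length and depth) calculated from the counts, the highest were the radial spoke protein Rsph9, with a median over 32 libraries of 103 TPM, the tubulin-binding protein Tppp3, with 97.2 TPM, and the transcription factor Rfx3, with 65.9 TPM. The lowest were the inner arm heavy chain Dnah10, with 0.252 TPM, and the central apparatus proteins Spag16, with 0.296 TPM, and Spag17, with 0.445 TPM. Foxj1 had a median of 2.93 TPM. By this median Foxj1 was in place 24 of the 42 genes. Spag6 had a median of 12.1 normalized counts, and reads that could come from its close copy Spag6l may have been split or lost. Cfap43 and Cdhr4 share exon sequence on the same strand with another gene, over 246 and 1459 bases, so that their levels are less certain.

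A pair of libraries stood apart, 129 male replicate 1 and B6 female replicate 1. In 129 male replicate 1, 28 of the 42 genes were more than 2-fold above the median of the other 7 libraries of the strain, and 37 were at the strain's highest level. In B6 female replicate 1, 21 genes were more than 2-fold above and 34 were at the strain's highest level. All 21 of these passed 2-fold in both libraries, and 13 genes passed 4-fold in both. The summed level of the 42 genes was 21848.8 normalized counts in 129 male replicate 1, against 10558.2 to 12298.9 in the other 7 libraries of 129. It was 15702.4 in B6 female replicate 1, against 9631.8 to 10510.2 in the other 7 of B6. Both libraries carry the number 1 in the labels, and the other 6 libraries with that number had median folds near 1, from 0.907 in SWR male replicate 1 to 1.09 in SJL female replicate 1.

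**Figure D1:**
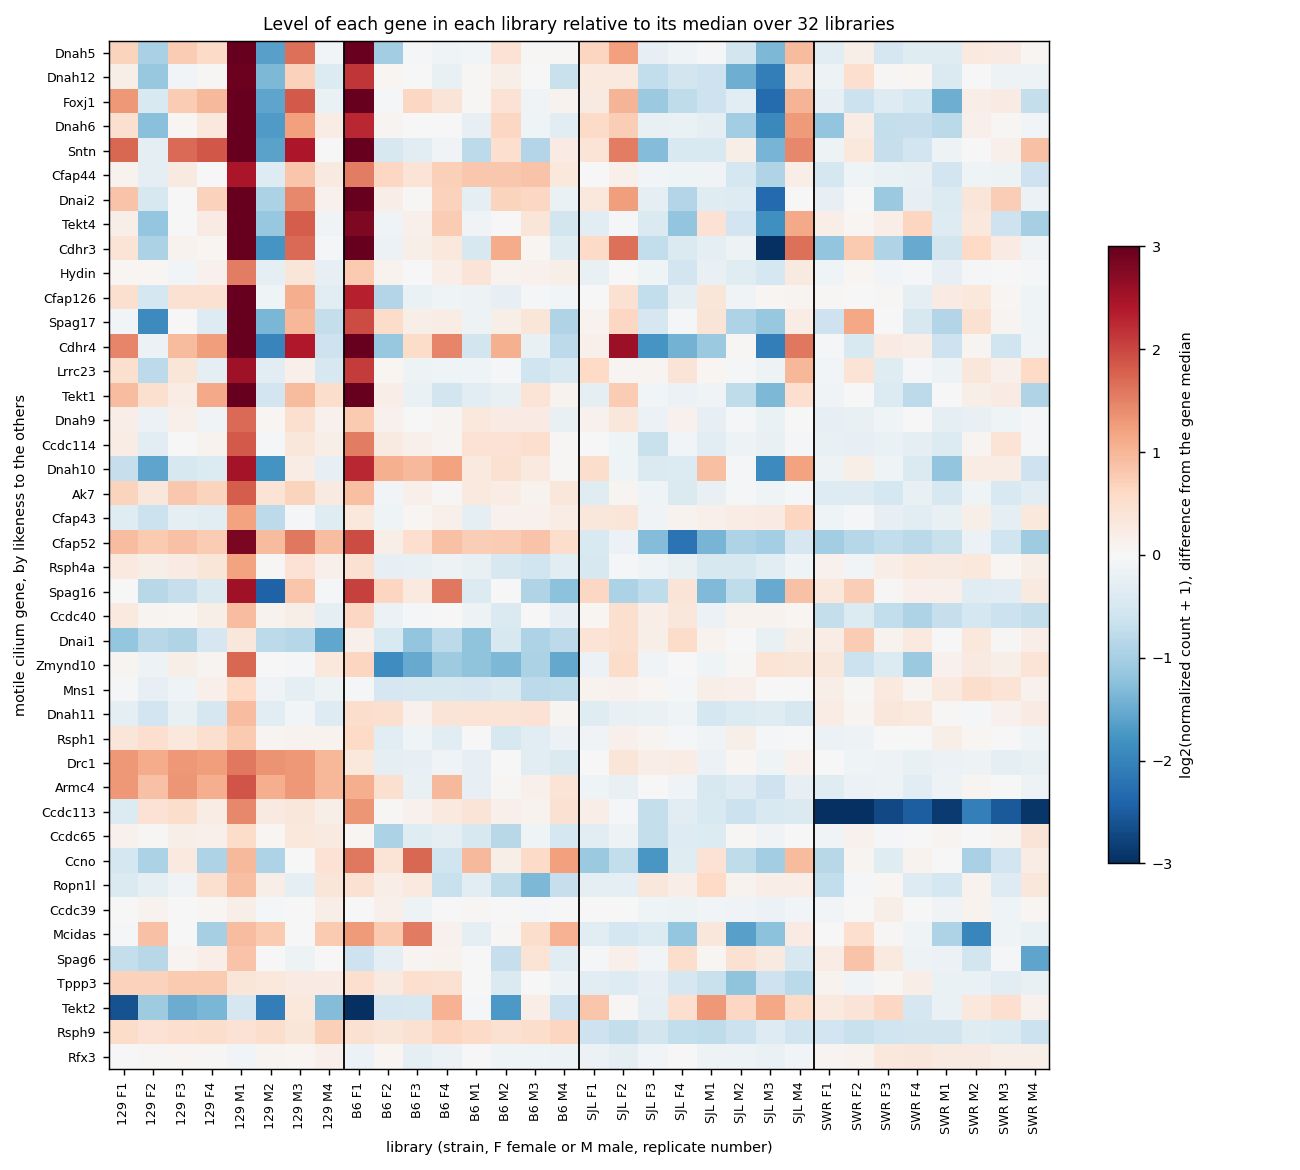
Each column is 1 of the 32 libraries, by strain and sex, and each row is 1 of the 42 genes, ordered by how closely it followed the mean of the others. Colour gives log2(normalized count + 1) as a difference from the gene's own median. The columns 129 M1 and B6 F1 are high over most of the upper rows, while rows such as Ccdc113, Drc1 and Rsph9 change in steps at the strain borders.

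Genes of the ciliary membrane and tip were among those furthest above their strain in both libraries. In B6 female replicate 1 the 3 highest folds were theirs, and in 129 male replicate 1 Spag17 (14.5-fold), Dnai2 (14.3-fold), Tekt4 (13.3-fold) and Dnah6 (11.2-fold) lay above Sntn. Sntn, a protein of the ciliary tip, had 461 normalized counts in 129 male replicate 1, 10.95-fold over the median of the other libraries of its strain (with 1 added to both levels), and 257 in B6 female replicate 1, 24.8-fold over. Cdhr4, a cadherin-like membrane protein, was 14.6-fold and 23.6-fold over, and its relative Cdhr3 14.5-fold and 14.4-fold over. Among the dynein arms, the outer arm heavy chain Dnah5 reached 3231 and 1759 normalized counts and the inner arm heavy chain Dnah6 591 and 217. Foxj1 reached 606 and 516, which is 9.06-fold and 12.3-fold over. By contrast, Rfx3 was 0.915-fold and 0.974-fold over and Rsph9 0.940-fold and 0.944-fold over, so that both of these abundant genes stayed at the level of their strain. Tppp3 was 0.804-fold over in the first and 1.40-fold over in the second.

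Summed markers of several other cell types that are not neurons were also high in these 2 libraries. The 10 listed markers of respiratory secretory cells summed to 12367.5 normalized counts in 129 male replicate 1 and 19623.7 in B6 female replicate 1. In the other libraries they ranged from 381 to 3088 in 129, 1262 to 2968 in B6, 320 to 3332 in SJL and 1148 to 2628 in SWR. Scgb1a1, Scgb3a1 and Tff3 had a median of 0 reads over all 32 libraries. Most of the sum was Reg3g, an antimicrobial lectin, with 9468 and 17464 normalized counts, and Cyp2f2, a cytochrome P450 of secretory cells, with 2401 and 1915. Other markers of the list went the other way. Bpifa1, with 135 and 51.2, was below its median over all libraries of 216 in both, and in B6 female replicate 1 so were Muc5b (7.46 against 47.2), Muc5ac (0 against 17.8) and Bpifb1 (3.20 against 6.44). The summed level of 8 gland markers was 4.64-fold and 18.9-fold over the strain median, and that of 5 basal cell markers 3.57-fold and 2.74-fold over. The gland sum also reached 163514 in an SJL library, and Lyz2 was below its median of 337 in 129 male replicate 1 (214) but not in B6 female replicate 1 (496). The sum of 5 tuft cell markers was 7.91-fold and 3.69-fold over. It rested on few counts, 53.3 and 133, with Chat at 0.936 and 1.07 and Il25 at 0 and 1.07. Vomeronasal neuron markers were 0.852-fold and 0.941-fold over and olfactory neuron markers 0.889-fold and 0.981-fold over. Germ cell markers, of interest because the sperm tail shares the axoneme, were 0.912-fold and 0.463-fold over, with Tnp1, Prm1, Prm2 and Acrv1 at a median of 0 reads. The part of these other cells in the level of the motile cilium genes was not tested.

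Outside these 2 libraries many of the genes still went up and down together between mice of 129 and between mice of SJL. In 129, male replicate 3 had 10 genes more than 2-fold over the strain median, whereas male replicate 2 had 13 and female replicate 2 had 12 below 0.5-fold of it. In SJL, male replicate 4 had 11 genes and female replicate 2 had 6 genes more than 2-fold over, and male replicate 3 had 12 below 0.5-fold. Such swings were not seen in SWR or the remaining B6 libraries. There, no library had more than 3 genes over 2-fold or more than 3 below 0.5-fold. The correlation of each gene with the mean of the other 41, on the log2 scale and centred within strain and sex, described which genes took part. It was 0.977 for Dnah5, 0.968 for Dnah12, 0.951 for Foxj1 and 0.945 for Sntn over 32 libraries, and 0.967, 0.935, 0.930 and 0.877 over the 30 libraries without the 2 high ones. In all, 21 genes were above 0.8 over 32 libraries and 12 over 30. Rfx3 at -0.34, Rsph9 at -0.28, Tekt2 at -0.18 and Tppp3 at 0.05 did not follow the rest. The points share library depth and preparation, so that these values are a description.

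Genes that followed the library and genes that followed the strain were largely different ones, by measures that are not independent of each other. Without the 2 libraries, 13 genes had more than 75% of their variance between strains and 13 had less than 20%. Among the 12 genes whose correlation with the others was above 0.8, the share between strains had a median of 10.3% and ran from 2.21% to 61.6%. Among the 17 genes with a correlation under 0.3, its median was 75.7% and it ran from 6.59% to 96.6%. Rsph9 with 96.6%, Drc1 with 95.0% and Ccdc113 with 94.6% lay at the upper end, and Cdhr3 with 2.20% and Dnah5 with 2.24% at the lower. A large spread between mice of a strain lowers the share between strains. Genes with such a spread also weigh most in the mean of the others. Part of the contrast is therefore built into the measures, and it is a description only.

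**Figure D2:**
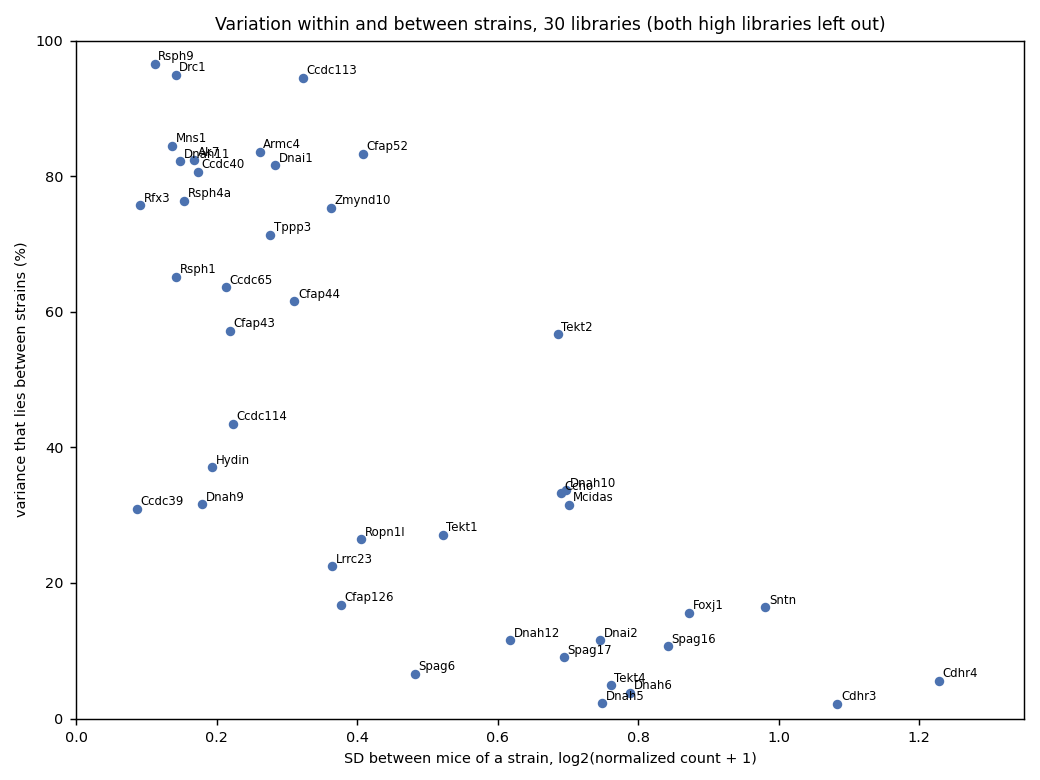
Each point is 1 of the 42 genes over 30 libraries, with the SD between mice of a strain on the x axis and the percent of variance between strains on the y axis. Rsph9, Drc1 and Ccdc113 lie at the top with over 94% between strains, and Cdhr3, Cdhr4, Sntn and Foxj1 lie at the lower right.

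The promoters of these genes were searched for 3 short sequence motifs. The windows were 300 bases long, 250 before and 50 after a RefSeq start site on GRCm38.p6, and 37 of the 42 genes matched at least 1 of them. The letters GTTGCC, which make up part of the sequence bound by RFX factors, were found on either strand in 22 of 42 windows of these genes, or 52.38%, against 12.51% of all 32851 windows. The X-box is the longer palindrome bound by RFX factors, and it overlaps the shorter motif. It was searched on both strands, but only as a rigid pattern with a gap of fixed length in the middle. This pattern was in 0 of 42 windows and in 0.4505% of all windows. Forms that differ from the pattern at a fixed letter or in the length of the gap were not counted. The search therefore cannot show whether these promoters lack an X-box. The forkhead letters TGTTTAC were in 3 of 42, or 7.143%, against 3.65% of all windows. Of the 12 genes with a correlation above 0.8, 11 matched a window and 7 of these held GTTGCC, and of the 17 with a correlation under 0.3, 14 matched and 9 held it, so that the motif was present in both sets. A match is a description of the letters only.

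The promoters of 5 genes are printed with GTTGCC, or GGCAAC where it lies on the other strand, in capitals. Dnai2 (chr11:114727169-114727468, plus strand), Cdhr3 (chr12:33092826-33093125, minus strand) and Sntn (chr14:13670626-13670925, plus strand, with the forkhead letters also in capitals as GTAAACA) were chosen as genes that followed the library. Drc1 (chr5:30281143-30281442, plus strand) and Ccdc113 (chr8:95533850-95534149, plus strand) were chosen as genes that stepped between strains. All 5 printed windows hold the motif. Those of Dnah5, Dnah12 and Dnah6, which also followed the library, and of Rsph9, which also stepped between strains, do not. The 5 therefore do not show how common the motif is. Each is written 5′ to 3′ on the strand of its gene.
Dnai2: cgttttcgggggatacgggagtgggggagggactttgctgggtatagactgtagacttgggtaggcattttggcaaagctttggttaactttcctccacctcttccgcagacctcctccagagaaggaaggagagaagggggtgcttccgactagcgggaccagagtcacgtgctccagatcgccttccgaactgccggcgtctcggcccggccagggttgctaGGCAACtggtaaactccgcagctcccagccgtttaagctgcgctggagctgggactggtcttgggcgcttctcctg
Cdhr3: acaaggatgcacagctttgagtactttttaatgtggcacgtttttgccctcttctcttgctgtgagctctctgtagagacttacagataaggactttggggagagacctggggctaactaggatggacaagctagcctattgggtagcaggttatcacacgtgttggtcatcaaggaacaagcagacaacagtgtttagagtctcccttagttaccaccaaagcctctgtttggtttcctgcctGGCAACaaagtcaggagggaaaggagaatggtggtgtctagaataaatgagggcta
Sntn: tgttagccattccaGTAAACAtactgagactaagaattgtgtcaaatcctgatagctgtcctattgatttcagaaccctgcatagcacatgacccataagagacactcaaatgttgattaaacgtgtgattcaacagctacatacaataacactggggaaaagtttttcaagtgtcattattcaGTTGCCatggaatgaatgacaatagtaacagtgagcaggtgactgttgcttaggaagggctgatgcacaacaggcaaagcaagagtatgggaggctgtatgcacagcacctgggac
Drc1: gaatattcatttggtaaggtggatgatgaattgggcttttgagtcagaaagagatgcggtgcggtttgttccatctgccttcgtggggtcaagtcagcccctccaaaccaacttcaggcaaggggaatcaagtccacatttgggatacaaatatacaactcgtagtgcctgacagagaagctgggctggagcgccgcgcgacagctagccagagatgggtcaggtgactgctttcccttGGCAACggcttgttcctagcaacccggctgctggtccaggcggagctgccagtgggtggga
Ccdc113: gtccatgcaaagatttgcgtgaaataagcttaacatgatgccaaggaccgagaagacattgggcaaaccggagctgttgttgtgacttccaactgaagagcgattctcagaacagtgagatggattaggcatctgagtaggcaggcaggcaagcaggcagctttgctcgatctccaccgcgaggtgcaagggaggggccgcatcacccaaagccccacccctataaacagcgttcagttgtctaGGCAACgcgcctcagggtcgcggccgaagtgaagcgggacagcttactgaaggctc

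Strain differences were next taken gene by gene, by role. Of the 42 genes, 22 were called in at least 1 of the 6 pairs of strains, at a fold above 2 and FDR under 0.05, which is 52.4% against 19.8% of all genes tested. The pairs share libraries, so that their counts are not independent. With both high libraries left out, 14 genes were called, 13 of them among the 22. The share of all genes called in any pair was not calculated for that fit. Lost were Ak7, Cdhr4, Cfap126, Cfap44, Dnah5, Dnah6, Dnai2, Tekt1 and Tekt4, and Dnai1 was gained.

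Among the regulators, Foxj1 ranged from 12.0 to 606 normalized counts in 129 (median 70.9), from 35.5 to 516 in B6 (median 45.7), from 6.89 to 79.3 in SJL (median 27.7) and from 13.3 to 45.9 in SWR (median 27.7). Levels overlapped between every pair of strains. Foxj1 was lower in SWR than in 129 (LFC -2.18 ± 0.65 SE, FDR = 0.00733) and in SJL than in 129 (LFC -1.82 ± 0.64 SE, FDR = 0.0235). Without the 2 libraries only the first of these stayed called (LFC -1.10, FDR = 0.0171), and leaving out 129 male replicate 1 by itself ended both (LFC -1.03 and -0.70). Foxj1 was also called lower in SWR than in B6 (LFC -1.79 ± 0.67 SE, FDR = 0.0302), a call that ended without B6 female replicate 1 (LFC -0.58), SWR female replicate 4 or SWR male replicate 1.

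Mcidas and Ccno, which lie next to each other on chromosome 13 (112993845 to 113000394 and 112987802 to 112990777, plus strand), were scarce. Ccno, a cyclin-like protein needed to multiply centrioles, had medians of 13.0 normalized counts in B6, 5.90 in 129, 6.20 in SWR and 3.81 in SJL, with overlapping ranges. It was higher in B6 than in 129 (LFC 1.10 ± 0.36 SE, FDR = 0.0101) and lower in SJL and SWR than in B6 (LFC -1.43 ± 0.37 and -1.34 ± 0.36 SE, FDR = 0.00178 and 0.00327). The call of B6 against 129 was lost (LFC 0.89 at the lowest) without 129 female replicate 4, 129 male replicate 2, B6 female replicate 1 or B6 female replicate 3. Mcidas had a median of 10.1 in B6, 8.46 in 129, 5.40 in SWR and 4.06 in SJL, and was called lower in SJL and SWR than in B6 (LFC -1.38 ± 0.38 and -1.17 ± 0.37 SE, FDR = 0.00305 and 0.0108). The call in SWR was lost without B6 female replicate 3 or SWR male replicate 2 (LFC -0.98 at the smallest). B6 also had the most reads on a background set of 326 genes, picked by family name (Krtap, Defa, Defb, Prl, Psg, Obox, Rhox, Tas2r, Ssxb and Mup). Its median was 20.5 RPM (reads scaled to library size) in B6, against 3.85 in 129, 7.93 in SJL and 10.1 in SWR. Some of these genes may belong to the tissue, since the paper counts some taste receptors among genes detected in the VNO. With reads on this set as a covariate Ccno was no longer called between B6 and 129 (LFC 0.87). The calls of Ccno and Mcidas in SJL and SWR against B6 stayed. Rfx3 ranged only from 3058 to 4752 normalized counts over all libraries and passed no limit on fold. It still differed a little by strain, since all libraries of SWR (3975 at the lowest) lay above those of B6 (3890 at the highest) and SJL (3762 at the highest).

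The outer dynein arm genes split in their behaviour. Dnah5 ranged from 71.0 to 3231 in 129 (median 345), from 108 to 1759 in B6 (median 222), from 86.7 to 529 in SJL (median 211) and from 157 to 272 in SWR (median 207), with all strains overlapping. It was called lower in SWR than in 129 (LFC -1.66 ± 0.58 SE, FDR = 0.0209) and no longer without the 2 libraries, or without 129 male replicate 1 alone (LFC -0.50). Dnai2, an intermediate chain, had medians of 33.1 in 129 and 32.7 in B6, and lower ones of 19.1 in SJL and 20.6 in SWR, and its calls against 129 in SJL and SWR (LFC -1.73 ± 0.63 and -1.75 ± 0.61 SE, FDR = 0.0272 and 0.0213) ended without 129 male replicate 1, and that in SJL also without SJL male replicate 2 or 3. The other intermediate chain, Dnai1, went the other way. Its normalized counts were 52.2 to 89.6 in SJL and 60.3 to 104 in SWR, against 19.9 to 77.7 in 129 and 26.1 to 68.2 in B6, and the highest library of 129 and of B6 were again the 2 that stand apart. In SJL and SWR Dnai1 was higher than in 129 (LFC 0.90 ± 0.19 and 0.92 ± 0.19 SE, FDR = 3.17e-04 and 1.93e-04), which is under the fold limit, and without the 2 libraries the fold passed it (LFC 1.16 and 1.19, FDR = 1.43e-08 and 8.48e-09). Dnah11 had medians of 735 in B6 and 625 in SWR against 450 in 129 and 428 in SJL.

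Armc4, which docks the outer arms, was highest in 129, with 123 to 244 normalized counts, against 42.4 to 66.7 in SJL and 50.9 to 69.8 in SWR, with no overlap. Its level in B6 lay between, from 55.0 to 142. The gene was lower in SJL than in 129 (LFC -1.56 ± 0.16 SE, FDR = 5.91e-10) and in SWR than in 129 (LFC -1.44 ± 0.16 SE, FDR = 2.72e-09). Dnah9 and Ccdc114, also of the outer arm, were called in no pair, with strain medians of 336 to 433 and 33.4 to 50.04 normalized counts.

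Of the inner arm heavy chains, Dnah6 was called lower in SWR than in 129 (LFC -1.68 ± 0.56 SE, FDR = 0.0161), a call lost without 129 male replicate 1 (LFC -0.48). Dnah10 was called lower in SWR than in B6 (LFC -1.24 ± 0.47 SE, FDR = 0.0361), which was kept in 26 of 32 fits without 1 library and lost with both high libraries left out, when it was instead called higher in B6 than in 129 (LFC 1.26, FDR = 0.00197). Dnah12, with strain medians of 49.3 to 75.7, was called in no pair. Zmynd10, which helps to assemble dynein arms in the cytoplasm, was low in B6. It lay between 9.72 and 19.3 normalized counts in 7 of the 8 B6 libraries and at 59.7 in B6 female replicate 1, against 34.1 to 128 in 129, 33.6 to 56.1 in SJL and 16.96 to 50.8 in SWR. The gene was lower in B6 than in 129 (LFC -1.31 ± 0.31 SE, FDR = 5.90e-04), and the fold was larger without the 2 libraries (LFC -1.53, FDR = 1.07e-07) but just under the limit without 129 male replicate 1 alone (LFC -0.99). It was also called higher in SJL than in B6 (LFC 1.03 ± 0.31 SE, FDR = 0.00696), at the edge of the fold limit. This call was lost without B6 female replicate 2 or 3, B6 male replicate 1, 2 or 4, or SJL female replicate 2 (LFC 0.94 at the lowest). It was also lost with reads on the background set as a covariate (LFC 0.88, edgeR FDR = 0.0522).

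Drc1, a core protein of the nexin-dynein regulatory complex on chromosome 5 (30281388 to 30366695, plus strand), was highest in 129. All 8 libraries of 129 lay between 437 and 666 normalized counts, and the libraries of B6, SJL and SWR between 162 and 286, so that 129 overlapped with no other strain. LFC against 129 was -1.44 ± 0.09 SE in B6 (FDR = 7.22e-16), -1.20 ± 0.08 in SJL (FDR = 5.01e-14) and -1.46 ± 0.08 in SWR (FDR = 3.06e-16), and these calls were kept without any 1 library. Its partner Ccdc65 had strain medians of 87.1 to 131, and the ruler proteins Ccdc39 and Ccdc40, which set the spacing along the doublet, 607 to 669 and 130 to 233. None of these 3 passed the fold limit.

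Rsph9, in the head of the radial spoke (chromosome 17, 46122035 to 46144216, minus strand), divided the strains in pairs. It ranged from 1208 to 1529 normalized counts in 129 and from 1194 to 1468 in B6, and from 552 to 712 in SJL and from 583 to 727 in SWR. No library of 129 or B6 overlapped with SJL or SWR. Against 129, LFC was -1.14 ± 0.05 SE in SJL (FDR = 7.64e-19) and -1.06 ± 0.05 in SWR (FDR = 5.25e-18). Against B6 it was -1.15 ± 0.05 SE in SJL (FDR = 6.09e-19) and -1.07 ± 0.05 in SWR (FDR = 3.74e-18). The other spoke genes, Rsph1, Rsph4a, Ropn1l and Lrrc23, were called in no pair, and of the central apparatus Spag6, Spag16, Spag17 and Hydin were called in none either. Hydin had strain medians of 109 to 142 normalized counts, while Spag6, Spag16 and Spag17 had 5.66 to 21.7.

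Among the tektins and inner proteins, Cfap52 (chromosome 11, 67924806 to 67965651, minus strand) showed the same division as Rsph9. Its normalized counts were 56.8 to 240 in 129 and 37.5 to 131 in B6, and 6.32 to 29.0 in SJL and 15.2 to 29.0 in SWR, with no overlap between these pairs of strains. Against 129, LFC was -2.31 ± 0.30 SE in SJL (FDR = 1.03e-07) and -2.14 ± 0.29 in SWR (FDR = 2.90e-07). Against B6 it was -1.84 ± 0.30 SE in SJL (FDR = 7.06e-06) and -1.67 ± 0.30 in SWR (FDR = 2.61e-05). Tekt2 was called higher in SJL and SWR than in 129 (LFC 1.86 ± 0.38 and 1.39 ± 0.40 SE, FDR = 2.00e-04 and 0.00476), from 1.16 to 15.5 in 129 to 9.94 to 31.8 in SJL and 8.48 to 19.5 in SWR. This gene was also called higher in SJL than in B6 (LFC 1.13 ± 0.37 SE, FDR = 0.0118), and not without B6 female replicate 1 or B6 male replicate 2, nor with both high libraries left out (LFC 0.97). Tekt1 was called lower in SJL than in 129 (LFC -1.61 ± 0.56 SE, FDR = 0.0212) and in SWR than in 129 (LFC -1.72). Neither call was kept without 129 male replicate 1 (LFC -0.66 and -0.74). Tekt4 and Cfap126 were called lower in SJL than in 129 as well (LFC -1.67 and -1.10), and Cfap126 also in SWR (LFC -1.08). In SJL the call of Tekt4 was kept in 24 of the 32 fits that each left out 1 library, and that of Cfap126 in 19. The LFC in these fits was -0.39 and -0.27 at the smallest. Both calls rested on 129 male replicate 1, among other 129 male and SJL libraries. The call of Cfap126 in SWR was kept in 22 fits, and not without 129 male replicate 1. Mns1 had medians of 311 in SWR, 279 in SJL, 244 in 129 and 188 in B6 and was under the fold limit.

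Ccdc113, a protein of the axoneme and of centriolar satellites (chromosome 8, 95534085 to 95558890, plus strand), was low in SWR. Its normalized counts were 3.81 to 11.8 in SWR, with a median of 6.64, against 38.4 to 141 in 129, 52.8 to 130 in B6 and 31.2 to 59.1 in SJL. SWR overlapped with no other strain, and the gene gave the only call between SWR and SJL (LFC -2.48 ± 0.26 SE, FDR = 1.97e-09). LFC was -3.30 ± 0.25 SE against 129 (FDR = 6.31e-13) and -3.25 ± 0.25 against B6 (FDR = 1.05e-12). Ak7, an adenylate kinase of the axoneme, had a median of 222 in 129, and of 161, 128 and 108 in B6, SJL and SWR, and was called lower in SWR than in 129 (LFC -1.16 ± 0.16 SE, FDR = 2.73e-07). Without 129 male replicate 1 the LFC was -0.93, under the limit. The tether complex gene Cfap44 was called lower in SWR than in 129 and B6 (LFC -1.03 ± 0.29 and -1.13 ± 0.29 SE, FDR = 0.00398 and 0.00185). The first ended without 129 male replicate 1 (LFC -0.47), SWR male replicate 1 or SWR male replicate 4, and the second without B6 female replicate 1 (LFC -0.94). Its partner Cfap43, with strain medians of 162 to 243, was called in no pair.

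**Figure D3:**
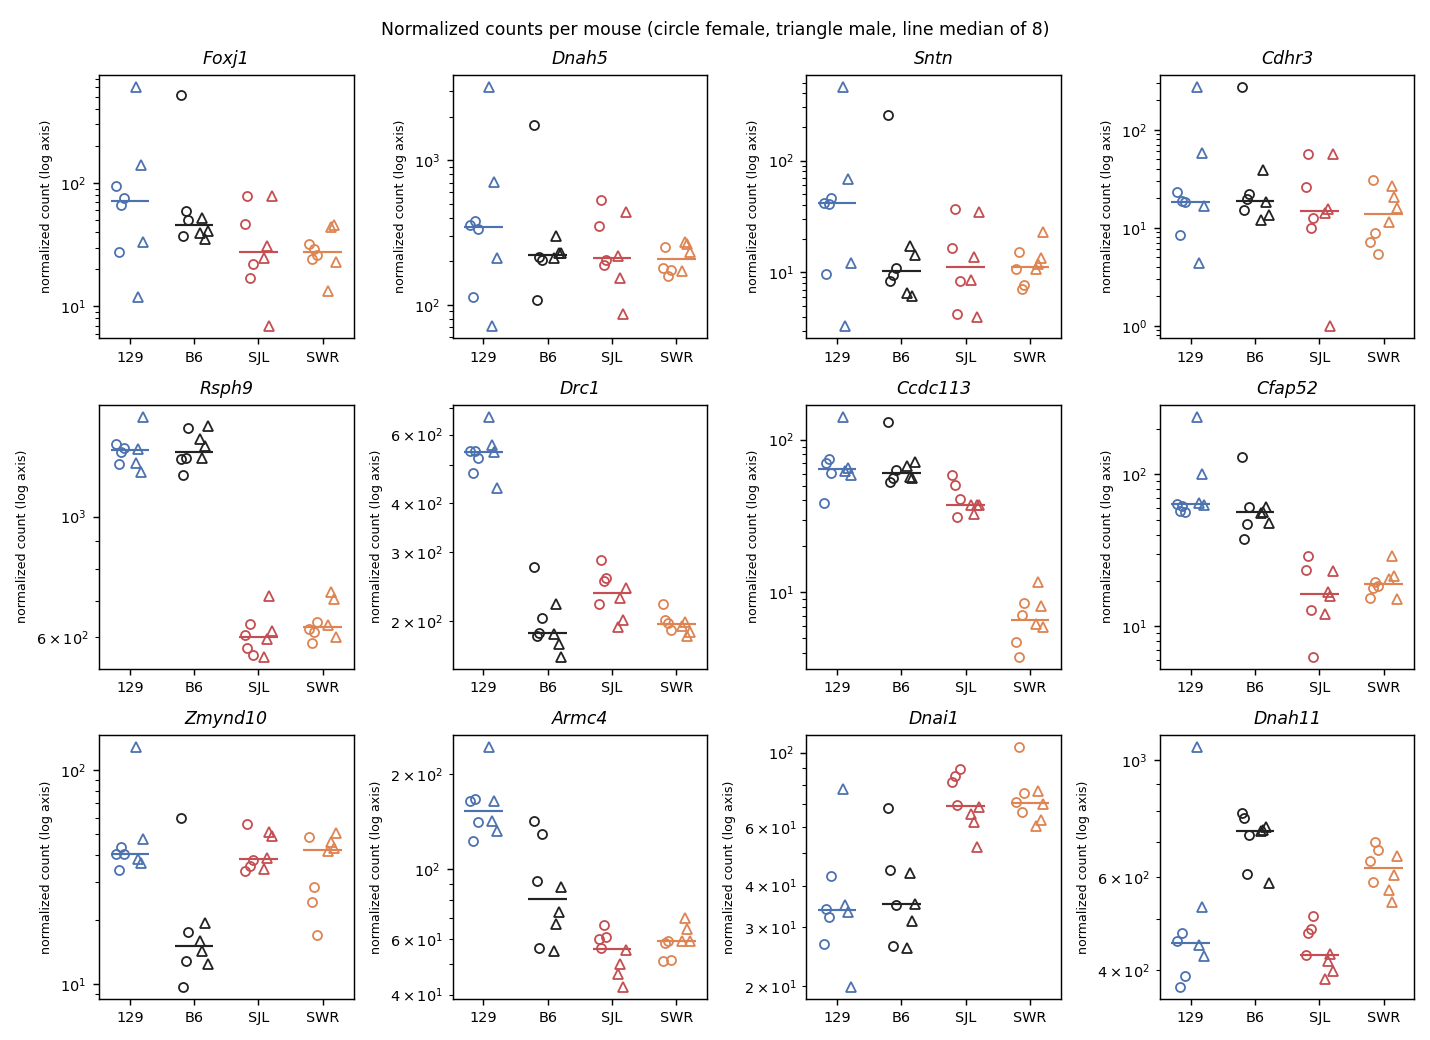
Each panel is 1 gene, with the normalized count of each of the 32 mice on a log axis by strain, circles for females, triangles for males and lines for medians of 8. In the top row 129 male replicate 1 and B6 female replicate 1 stand above the rest, while in the lower rows whole strains step up or down, as Ccdc113 does in SWR.

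Of the membrane and tip genes, Sntn ranged from 3.28 to 461 in 129 (median 41.5), from 6.09 to 257 in B6 (median 10.2), from 3.94 to 36.7 in SJL (median 11.1) and from 7.08 to 22.8 in SWR (median 11.2). Ranges overlapped throughout. It was called lower in SJL and SWR than in 129 (LFC -2.43 ± 0.80 and -2.79 ± 0.81 SE, FDR = 0.0151 and 0.00587), and without the 2 libraries also in B6 (LFC -1.62, FDR = 0.00482). Without 129 male replicate 1 alone the calls in SJL and SWR ended (LFC -0.93 and -1.24). Cdhr4 was called lower in SWR than in 129 (LFC -2.76 ± 0.89 SE, FDR = 0.012), and not without the 2 libraries or without 129 male replicate 1 alone (LFC -1.14). Cdhr3 was called in no pair.

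By pair of strains, the calls were uneven. Between B6 and 129, 3 of 42 genes were called, against 11.1% of all genes, and these were Ccno, Drc1 and Zmynd10. SJL against 129 gave 12, against 8.38%, of which 11 were lower in SJL, against 2.76%, and SWR against 129 gave 16, against 7.73%, of which 15 were lower in SWR, against 3.11%. SJL against B6 gave 6, against 7.99%, and SWR against B6 gave 8, against 8.05%, all lower in SWR, against 5.53%. SWR against SJL gave 1, against 4.50%. The median LFC of the 42 genes was -0.83 for SJL against 129 and -0.68 for SWR against 129, where that of all genes tested was -0.01 in both, and it was -0.03 for SWR against SJL. Without the 2 libraries SWR against 129 gave 9 genes, against 8.25% of all genes tested in that fit, and B6 against 129 gave 5, against 13.5%. At FDR under 0.05 with no limit on fold, 34 of 42 genes, or 81.0%, differed in at least 1 pair, a share near that of all genes, 80.1%. By pair these were 12 for B6 against 129 (52.8% of all genes), 24 for SJL against 129 (38.3%), 23 for SWR against 129 (41.8%), 17 for SJL against B6 (45.7%), 19 for SWR against B6 (40.9%) and 8 for SWR against SJL (32.5%).

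**Figure D4:**
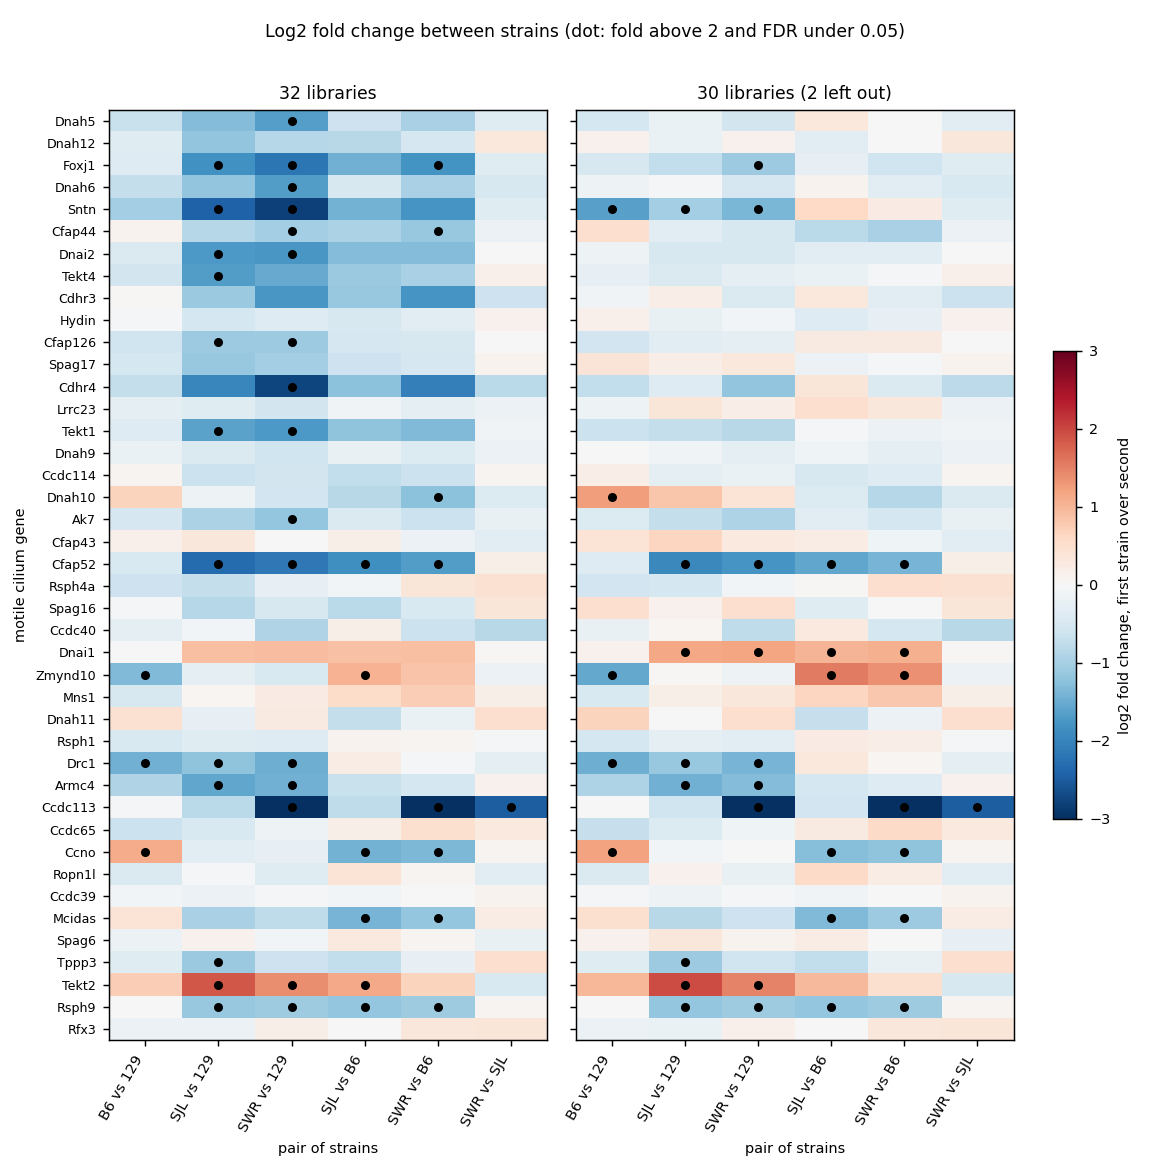
Rows are the 42 genes and columns the 6 pairs of strains, with colour for log2 fold change and a dot for a fold above 2 with FDR under 0.05, over 32 libraries on the left and 30 on the right. The dots of Dnah5, Dnai2, Tekt1 and Cdhr4 are missing on the right, and those of Rsph9, Drc1, Cfap52 and Ccdc113 are in both panels.

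Between the sexes no motile cilium gene passed a fold of 2 with FDR under 0.01 in edgeR, where 0.0381% of all genes did. At an unadjusted p under 0.05 the count was 1 gene, Tppp3, against 8.97% of all genes, and by DESeq2 it was 0 at the same fold and FDR limits. Tppp3, a tubulin-binding protein on chromosome 8 (105467493 to 105471526, minus strand), had a smaller difference that ran through all strains. In 129 its normalized counts were 1397 to 1497 in females and 1033 to 1122 in males, with means of 1448 ± 57.2 (SD, n = 4) and 1068 ± 43.0. In B6 they were 1054 to 1245 and 649 to 873, in SJL 618 to 731 and 379 to 561, and in SWR 810 to 994 and 684 to 760. The sexes overlapped in none of the 4 strains. Over all strains LFC was -0.44 ± 0.05 SE for males against females (FDR = 8.65e-08 in edgeR), where 0.283% of all genes had an FDR under 0.05, and it was -0.44 within 129 (FDR = 0.0442), -0.57 within B6 (FDR = 0.00131), -0.45 within SJL (FDR = 0.0343) and -0.31 within SWR (FDR = 0.194). Within these strains 0.0816%, 0.103% and 0.125% of all genes, for 129, B6 and SJL, had an FDR under 0.05. Tppp3 also differed between strains, lower in SJL than in 129 (LFC -1.11 ± 0.07 SE, FDR = 1.26e-15).

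**Figure D5:**
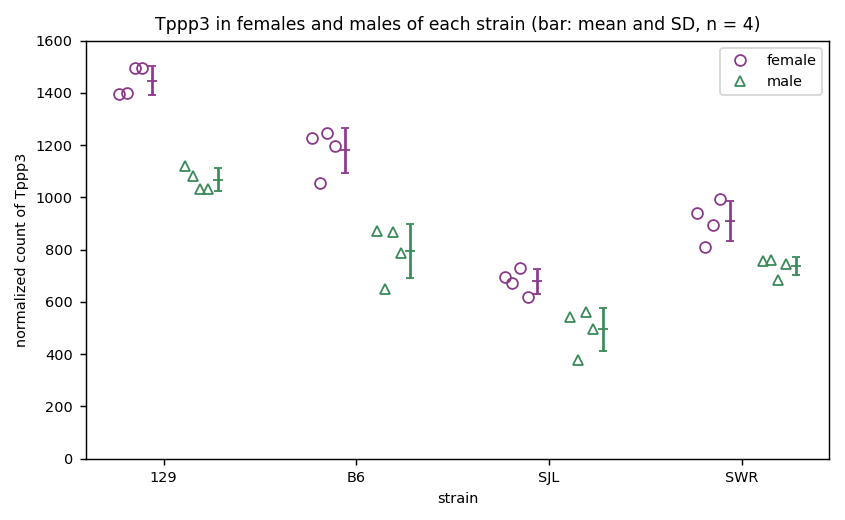
Normalized counts of Tppp3 for each mouse by strain, circles for females and triangles for males, with bars for mean and SD of 4 mice. In each strain every female lies above every male.

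Within strains, other genes leaned with the sex of the high library. No gene was called within any strain by edgeR at a fold of 2 and FDR under 0.05, where 0.0381% of all genes in 129, 0.0544% in B6 and in SJL and 0.0816% in SWR were called, and DESeq2 called 0 as well. With no filter on low counts edgeR called 12 of the 42 within 129 (0.254% of all genes), 6 within B6 (0.303%) and 18 for the interaction (0.952%). At an unadjusted p under 0.05, 21 genes were higher and 1 lower in males of 129, where the high library is a male and 4.93% of all genes were higher, and 14 genes were lower and 0 higher in males of B6, where it is a female and 5.67% of all genes were lower. In SJL 1 gene had such a p (6.64% of all genes) and in SWR 2 (8.25%), all lower in males. For the interaction of sex and strain 0 genes passed an FDR of 0.05 in edgeR, against 0.0163% of all genes, and 20 had an unadjusted p under 0.05, against 8.94% of all genes, and DESeq2 called 0.

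A second list of 85 other motile cilium genes, such as dynein chains and assembly factors not among the 42, had 82 in the tables and 78 tested. Of these, 20 were called in at least 1 pair of strains, or 25.6%, against 19.8% of all genes. Dydc2 was higher in SJL and SWR than in 129 (LFC 2.21 and 2.19, FDR = 3.61e-18 and 4.24e-18), Rsph3a was higher in both (LFC 1.03 and 1.17, FDR = 3.10e-13 and 8.40e-15), and Cfap54 was lower in B6 than in 129 (LFC -1.59, FDR = 9.42e-12). The summed level of this list was 1.38-fold over the strain median in 129 male replicate 1 and 1.17-fold in B6 female replicate 1, a smaller rise than the summed 42 genes showed. Outside both lists and over the same 32 libraries, the genes whose level followed the mean of the 42 most closely were Ccdc180 (r = 0.941), Tctex1d4 (r = 0.938), AU040972 (r = 0.937), Adam8 (r = 0.936) and Ccdc33 (r = 0.935).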

How the data were processed

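RNA of each mouse was ribodepleted and made into stranded total RNA libraries. Per the labels and the study's methods, the authors trimmed the reads with Trim Galore, aligned those of all strains to the mm10 reference with STAR, took its counts per gene for 1 strand, and divided them by DESeq2 size factors, so that the deposited values are raw counts and normalized signal. The ratio of these tables was constant within each library. Counts were tested with edgeR 4.0.16 (TMM, filter on low counts over 8 groups, terms for strain and sex) in R 4.3.3, with Benjamini-Hochberg adjustment over 18382 genes, and each SE was obtained from the LFC and its F statistic. Sexes within strains and interactions used a term for each group. DESeq2 1.42.0, scaling, filter, covariates and left-out libraries were alternatives. The background covariate was chosen after seeing the data. TPM used GENCODE exon lengths for 49412 genes. On simulated data with 200 genes changed 3-fold, 192 were called between B6 and 129, 194 between the sexes, 191 within SJL and 172 for the interaction. For the interaction 10 unchanged genes were called too, and 0 in the other comparisons. The simulation gave all genes 1 fixed spread and held no library that stands apart. These rates therefore do not carry over to genes that vary as the motile cilium genes did. The genes, lists and tests were chosen with earlier results of these data known. Every gene was named, with full values for those called, at most the 10 of lowest FDR in a pair.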

Additional observations from a re-analysis of the deposited data

Results flagged for a closer look

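In groups of 4 mice of 1 strain and sex, a single library's gap to the nearest other was compared with the group's whole range. Of 336 such comparisons over the 42 genes, 54 passed the critical value, where chance gives about 1 in 20. B6 female replicate 1 was the high library for 21 genes and 129 male replicate 1 for 18, and all other libraries together held 15, in 9 combinations of library and direction. The summed level of the 42 genes was also set apart in both, at 15702.4 and 21848.8 normalized counts. It was set apart in 129 female replicate 2, the lowest female of 129 with 10664.9, and in SWR male replicate 2, the highest male of SWR with 10482.3, as well. The causes were not tested.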

How the results depend on the processing

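Directions held in every alternative run. Of 46 calls of single genes in a pair of strains, 46 stayed with DESeq2 size factors, DESeq2's test and no filter on low counts. With reads on the background set as a covariate 41 stayed, and 36 with the replicate block. With both high libraries left out 29 stayed, and 27 with the level of the other motile cilium genes as a covariate. With both high libraries left out, 14 genes were called in any pair. B6 against 129 gave 5 (13.5% of all genes) and SWR against 129 gave 9 (8.25%). With the other motile cilium genes as a covariate, 13 genes were called in any pair. B6 against 129 gave 5 (11.5% of all genes), SWR against 129 gave 7 (7.7%) and SJL against 129 gave 7 (8.75%). With reads on the background set as a covariate, SWR against B6 gave 5 (6.72% of all genes), without Cfap44, Dnah10 and Foxj1. With FDR alone, 34 were called in any pair, 12 in B6 against 129, 24 in SJL against 129, 17 in SJL against B6, 19 in SWR against B6 and 8 in SWR against SJL, with 1 (Tppp3) between the sexes and 1 within each of 129, B6 and SJL. With no filter, 12 genes were called between the sexes within 129 (0.254% of all genes), 6 within B6 (0.303%) and 18 for the interaction (0.952%), so that the absence of such calls depends on the filter, and the cause was not tested. Leaving out 1 library at a time gave 18 to 24 genes in any pair, 2 to 12 in B6 against 129, 7 to 17 in SJL against 129, 7 to 18 in SWR against 129, 4 to 9 in SJL against B6, 6 to 12 in SWR against B6 and 0 to 1 within 129. The replicate block gave 17 genes in any pair, 8 in SJL against 129 (8.2% of all genes) and 11 in SWR against 129 (7.56%). The share of all genes called in any pair was not calculated with libraries left out, a covariate or the block. Same-numbered libraries correlated from -0.289 to 0.477, with the highest value for number 1, which both high libraries carry. Only 5 of 32 libraries were nearest to their own number, so that no general pairing by number was seen. These correlations cannot show whether some libraries of a number share a batch. The summed level of the 42 genes in 129 was 1.31 times that in SJL, by medians, and 1.32 times in TMM-scaled CPM. Much of this sum was Rfx3, Rsph9 and Tppp3. Their median shares were 32.9%, 11.6% and 11.1% in 129, and 40.4%, 6.71% and 6.94% in SJL. The ratio therefore does not describe the 42 genes evenly. Genes such as Mcidas, Ccno and Tekt4 rest on few reads, which limits what their ranges can show.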
